A study of Mus musculus with 10 samples.

Results

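Gene expression in T cells from mouse melanomas was compared head to head between tumors treated with an agonistic antibody to CD40 and tumors treated with an inhibitor of the CSF1 receptor (CSF1R). The comparison used 5 of the 10 libraries of the study, 3 CD40 libraries (CD40 1, 2 and 3) and 2 CSF1Ri libraries (CSF1Ri 1 and CSF1Ri 6). The numbers are those of the sample titles, except that the title behind CSF1Ri 1 has none and its number is only a name. Genes were kept when at least 2 of these 5 libraries had 10 or more normalized counts, which left 14052 of 48825 genes. The other libraries, 3 of untreated control tumors and 2 of tumors given both agents, helped to estimate the spread.

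All groups carried the same alleles, BrafCA, Tyr::CreER and Ptenlox4-5, although the genotype field of the labels reads wild type. In this model a Cre recombinase that is switched on by tamoxifen is driven by the tyrosinase promoter of melanocytes, and the tumors were induced locally. CD40 mice were injected intraperitoneally with up to 10 doses of the antibody FGK4.5, each of 10 mg/kg, 3 days apart. CSF1Ri mice received the inhibitor PLX6134 in chow at 600 mg/kg. Treatment started 30 days after induction, when tumors were small, and went on for 30 days or until the tumor endpoint. The control received normal chow or vehicle, mice were age-matched, and their age and sex were not stated. At least 3 tumors were pooled into each library, so the p-values below measure the spread between 2 or 3 pools and not between animals.

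CD40 is a receptor of the TNF receptor family on dendritic cells, macrophages and B cells, and its ligand is carried mainly by activated CD4 T cells. CSF1R is the receptor through which CSF1 and IL-34 keep macrophages alive, so the receptors of both agents sit mainly on cells other than T cells. Type 17 T cells, among them many skin gamma delta T cells, secrete IL-17A and IL-17F and depend on IL-23 and IL-1 from myeloid cells. Mast cells and basophils carry the high-affinity IgE receptor, and mast cells store proteases such as chymase, tryptase and carboxypeptidase A3.

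The titles name T cells, the tissue field names tumor associated macrophages, and the protocol text gives no step that selects T cells. The T cell label was borne out by the level of Cd3e, a chain of the T cell receptor complex, at 17238, 17149 and 18088 normalized counts in CD40 libraries, against 19445 and 22898 in CSF1Ri libraries. Csf1r, the defining macrophage receptor, stood at 235, 99 and 109 in CD40 libraries, against 99 and 133 in CSF1Ri libraries. Its exons overlap Hmgxb3 on the opposite strand, which summed to 656 over the 5 libraries, against 675 for Csf1r. Since the libraries keep no strand, reads of that overlap cannot be told apart. Cd40 stood at 205, 405 and 42 in CD40 libraries, against 200 and 148 in CSF1Ri libraries. The receptor that each agent binds was therefore low, and its groups overlapped. The 95% interval of the log2 difference ran from -1.02 to 1.52 for Csf1r and from -2.16 to 1.81 for Cd40, which leaves differences of over 2-fold undecided in either direction. Transcripts of the Y chromosome summed to 0, 1569 and 3072 in CD40 libraries, against 0 and 0 in CSF1Ri libraries, so CD40 1 was the only CD40 library without male RNA. The long noncoding RNA Malat1 was at 25034, 35311 and 95260 in CD40 libraries, against 34141 and 21997 in CSF1Ri libraries. Transcripts of the mitochondrial genome summed to 261965, 241918 and 123380 in CD40 libraries, against 250565 and 276613 in CSF1Ri libraries. Across 8814 genes, the rank correlation between libraries was 0.885, 0.806 and 0.791 within the CD40 group, with the lower values for the pairs that hold CD40 3. It was 0.942 within the CSF1Ri group, and CD40 1 ranked closer to the CSF1Ri libraries (0.923 and 0.920) than to either other CD40 library. CD40 3 also ranked closer to the CSF1Ri libraries (0.8615 and 0.8322) than to either other CD40 library. CD40 2 ranked about as close to the CSF1Ri libraries (0.880 and 0.871) as to CD40 1 (0.885). The part of sex and of these library differences in the results was not tested beyond the alternatives given with them. In such bulk RNA, fewer cells of a type and less RNA per cell cannot be told apart.

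No gene passed an adjusted p under 0.05 in limma, so 0% of the 14052 genes were called in either direction. At an unadjusted p under 0.05, 565 genes (4.02%) stood out, 237 of them higher (1.69%) and 328 lower (2.33%) with CD40. In 1136 genes (8.08%) every CD40 library lay above both CSF1Ri libraries, and in 1308 genes (9.31%) every CD40 library lay below both. By the mean log2 value, 6598 genes (47%) were higher and 7454 (53%) lower with CD40, and the median log2 difference of all genes was -0.04. Values below are normalized counts, differences are log2 of value plus 1, CD40 minus CSF1Ri, and p-values are limma's, unadjusted and two-sided unless named otherwise. Apart from Anxa8 and Ccl6, no gene had an adjusted p below 0.9996, so the genes and lists that follow are described by their values and not as established changes.

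**Figure D1:**
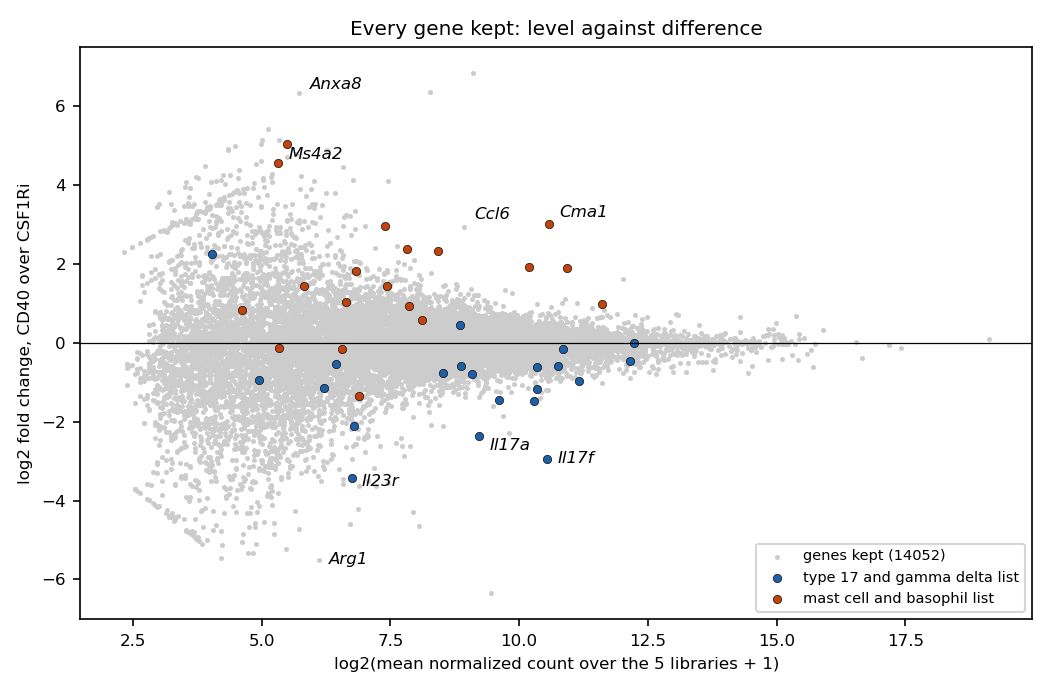
Level against difference for the 14052 genes kept. The x axis is log2 of the mean normalized count over the 5 libraries plus 1, and the y axis is the log2 fold change of CD40 over CSF1Ri; each point is 1 gene, blue for the type 17 and gamma delta list and red for the mast cell and basophil list. Of the blue points 19 of 21 lie below 0, and of the red points 16 of 19 lie above 0.

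Among the genes higher with CD40, Anxa8 and Ccl6 had the smallest p, each with an adjusted p of 0.0586 in limma. That fit took its spread from all 10 libraries, and with the 5 libraries compared alone no gene came near the threshold. Ccl6, a CC chemokine that mouse myeloid cells secrete, had 593, 989 and 664 normalized counts in CD40 libraries, against 121 and 73 in CSF1Ri libraries. All 3 CD40 libraries were more than 4-fold above the higher CSF1Ri library. The means were 749 ± 211 with CD40 (SD, n = 3) and 97.0 ± 33.9 with CSF1Ri (SD, n = 2), a 7.70-fold difference (log2 2.94, SE 0.38). Its gene lies at chr11:83587882-83593087 (GRCm38). The control libraries lay between the groups at 349, 373 and 567, and over the alternatives its adjusted p ran from 0.0613 to 1. Ccl9, a neighbouring chemokine of the same family, had 99, 228 and 232 in CD40 libraries, against 51 and 44 in CSF1Ri libraries, and was looked up after Ccl6 had been seen.

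Anxa8, a calcium-dependent phospholipid-binding annexin of epithelial cells, had 55, 135 and 70 in CD40 libraries and was at 0 in both CSF1Ri libraries. Taking 3 counts per library as the floor, it was at least 28.9-fold higher with CD40. In control libraries it stood at 83, 187 and 164, so the CSF1Ri libraries were the low ones. Its gene lies at chr14:34085981-34100571. Anxa8 is a member of the keratinocyte list, 14 of whose 17 kept members were higher with CD40. Every CD40 library was above in 3 (17.6%, against 8.08% of all genes) and below in 1 (5.88%, against 9.31%). The list's sum was 3216, 1454 and 571 in CD40 libraries, against 718 and 920 in CSF1Ri libraries, and the part of epithelial RNA in the value of Anxa8 was not tested. Krt5, a basal keratin, had 70, 61 and 61 in CD40 libraries, against 3 and 63 in CSF1Ri libraries, so 1 CSF1Ri library matched the CD40 level. Without CD40 1 the count of keratinocyte genes higher with CD40 was 9.

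Among genes with a mean of at least 50 over the 5 libraries and groups that do not overlap, the other 10 of this direction with the smallest p were Thap7, Mgll, Maml1, Pole, Gmcl1, Pgls, Acer2, Snapc2, Creld2 and Alcam. Thap7, a chromatin-associated factor with a THAP domain, had 616, 671 and 844 in CD40 libraries, against 335 and 224 in CSF1Ri libraries. Pgls, the lactonase of the pentose phosphate pathway, had 1118, 1300 and 1225 in CD40 libraries, against 557 and 454 in CSF1Ri libraries. The log2 difference was 1.36 (SE 0.31) for Thap7 and 1.27 (SE 0.36) for Pgls. A small spread beside the gap is favoured by the way these genes were chosen. Mgll, the lipase that breaks down monoacylglycerols, had 301, 128 and 93 in CD40 libraries, against 3 and 18 in CSF1Ri libraries. Pole, the catalytic subunit of DNA polymerase epsilon, had 191, 172 and 255 in CD40 libraries, against 81 and 55 in CSF1Ri libraries. Alcam, an adhesion molecule bound by CD6 on T cells, had 220, 202 and 298 in CD40 libraries, against 98 and 65 in CSF1Ri libraries. Mgll rests on counts near the floor in the CSF1Ri group, whereas Pole and Alcam were at 55 or more there. Creld2, a chaperone-associated protein of the endoplasmic reticulum, had 581, 715 and 852 in CD40 libraries, against 416 and 224 in CSF1Ri libraries. Maml1, a coactivator of Notch, had 143, 228 and 124 in CD40 libraries, against 58 and 7 in CSF1Ri libraries. The remaining 3 were Gmcl1, Acer2 (a ceramidase of the Golgi) and Snapc2 (a subunit of the complex that starts small nuclear RNA transcription), with log2 differences of 1.52, 4.24 and 1.80. Acer2 had 120, 22 and 112 in CD40 libraries, against 0 and 12 in CSF1Ri libraries, so it too rests on counts near the floor.

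**Figure D2:**
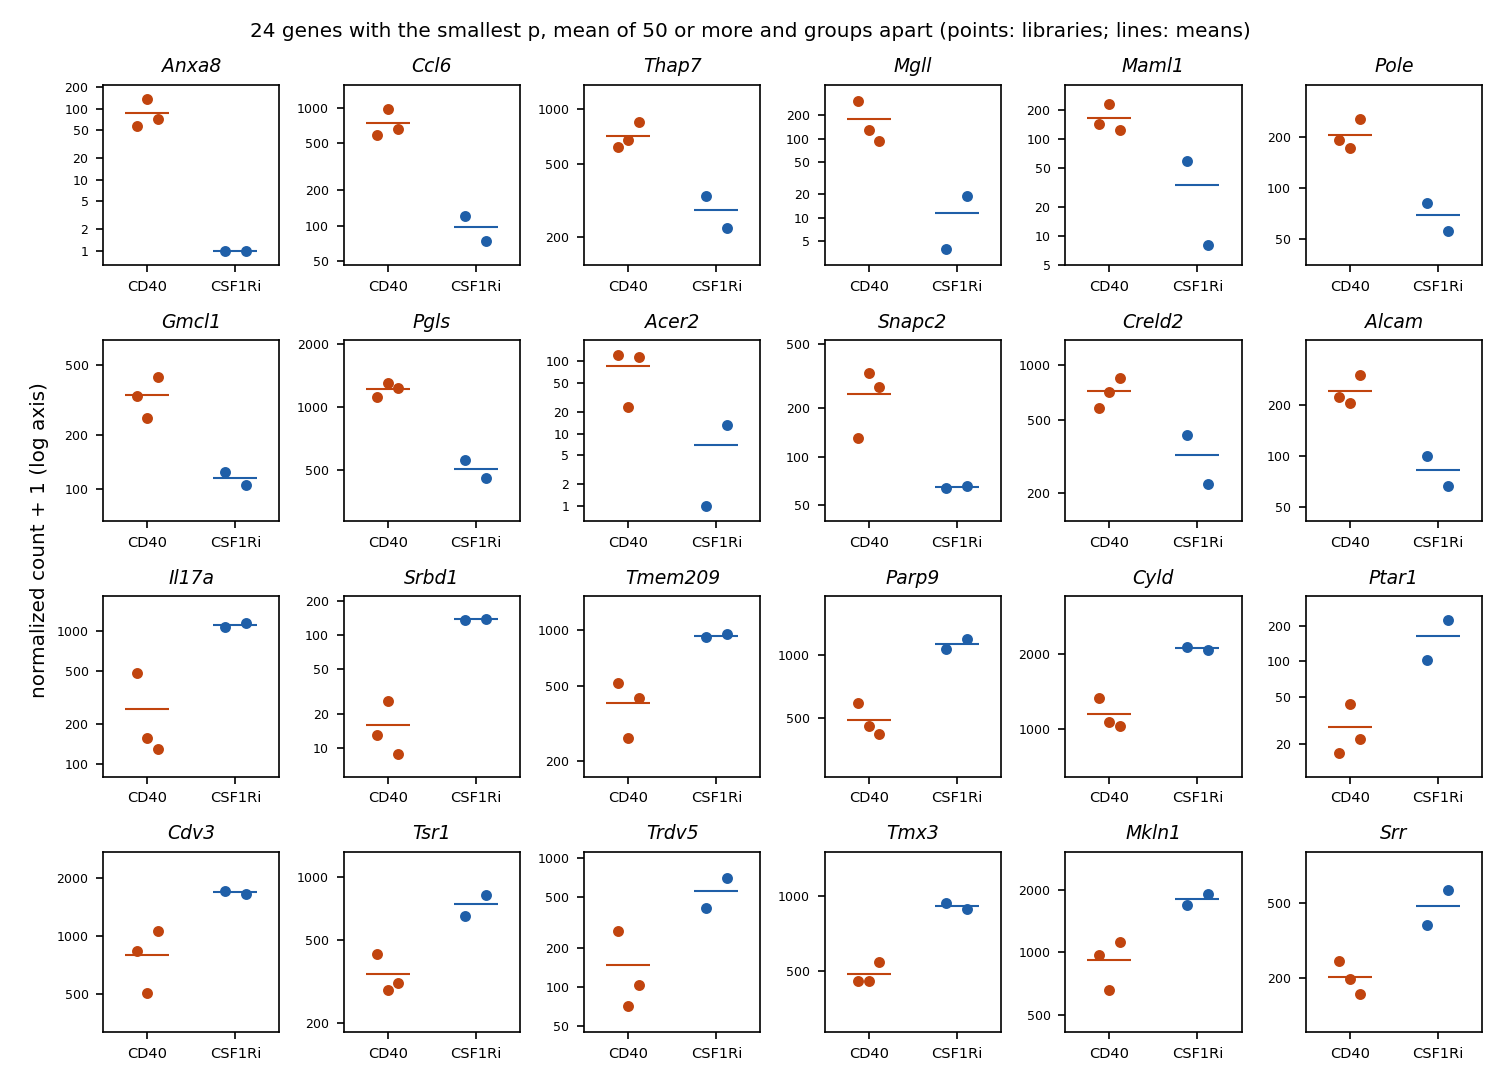
Normalized counts plus 1, on a log axis, of the 24 genes with the smallest p whose mean is 50 or more and whose groups do not overlap, 12 higher and 12 lower with CD40. Points are the 3 CD40 libraries (red, left) and 2 CSF1Ri libraries (blue, right), and lines are group means; no CD40 point shares the range of the CSF1Ri points because the genes were chosen so.

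Il17a, the founding cytokine of type 17 cells, headed the genes lower with CD40. It had 485, 155 and 128 normalized counts in CD40 libraries, against 1070 and 1138 in CSF1Ri libraries. Every CD40 library had under 50% of the level of the lower CSF1Ri library. The means were 256 ± 199 with CD40 (SD, n = 3) and 1104 ± 48.1 with CSF1Ri (SD, n = 2), a log2 difference of -2.37 (SE 0.46, 95% interval -3.39 to -1.35). Its adjusted p with all libraries was 0.9996 in limma. The control libraries were higher than both groups, at 3182, 3672 and 4222. Without CD40 1 the difference was -2.96 and passed the threshold in limma (adjusted p = 0.0096). Every CD40 library left then held Y-linked transcripts and the CSF1Ri libraries held none, so sex and agent cannot be told apart there. With CD40 1 as the sole CD40 library, among libraries without Y-linked transcripts, the difference was -1.18. Over all alternatives the adjusted p of Il17a ran from 0.0096 to 1. The gene lies at chr1:20730905-20734496, and Il17f is its neighbour on the same chromosome.

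Promoters of 3 genes of the type 17 program are shown here because their transcripts had the most negative differences of the list. The windows run from 250 bases before to 50 after the RefSeq start (GRCm38.p6) and are written 5′ to 3′ on the strand of the gene. Capitals mark AGGTCA or its reverse complement TGACCT, a half-site that nuclear receptors such as RORA bind. Il17a is at chr1:20730655-20730954 on the plus strand, Il17f at chr1:20784221-20784520 on the minus strand and Il23r at chr6:67491806-67492105 on the minus strand.
Il17a: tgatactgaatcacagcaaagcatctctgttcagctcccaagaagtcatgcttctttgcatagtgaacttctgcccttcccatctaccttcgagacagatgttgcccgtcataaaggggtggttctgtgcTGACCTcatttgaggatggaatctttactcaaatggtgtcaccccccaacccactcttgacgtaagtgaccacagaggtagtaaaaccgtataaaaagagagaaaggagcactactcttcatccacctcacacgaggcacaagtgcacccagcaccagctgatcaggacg
Il17f: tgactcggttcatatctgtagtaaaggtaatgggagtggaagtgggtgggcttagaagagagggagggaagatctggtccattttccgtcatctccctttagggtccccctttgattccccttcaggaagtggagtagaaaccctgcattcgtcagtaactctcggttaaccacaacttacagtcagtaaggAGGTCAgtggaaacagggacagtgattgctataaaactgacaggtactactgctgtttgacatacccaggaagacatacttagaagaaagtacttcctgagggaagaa
Il23r: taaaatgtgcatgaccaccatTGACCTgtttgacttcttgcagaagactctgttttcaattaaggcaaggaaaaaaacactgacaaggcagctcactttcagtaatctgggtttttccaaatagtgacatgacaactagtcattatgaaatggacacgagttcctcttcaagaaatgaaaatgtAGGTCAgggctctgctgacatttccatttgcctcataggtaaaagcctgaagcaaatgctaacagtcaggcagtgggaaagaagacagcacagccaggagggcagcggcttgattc
The windows of Il17a and Il17f hold 1 match each and that of Il23r holds 2. Of 32544 RefSeq promoters of this length, 16.2% hold the element on either strand. A match describes the letters of the window and is neither a binding site nor a cause.

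The type 17 and gamma delta list had 21 members in the table, all kept, of which 19 were lower with CD40 (53% of all genes were) and 2 higher, with a median log2 difference of -0.78 against -0.04 for all genes. Every CD40 library lay below both CSF1Ri libraries in 7 of the 21 (Il17a, Il23r, 5830411N06Rik, Tcrg-C4, Aqp3, Rora and Ccr6), against 9.31% of all genes, and above in 0. At an unadjusted limma p under 0.05, 7 members were lower and 0 higher, against 2.33% and 1.69% of all genes. The list's median ran from -0.95 to -0.52 over the alternatives and did not change sign. Without CD40 2 the count of lower members was 15, and without CSF1Ri 6 it was 16.

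Il17f, the partner cytokine of Il17a, did not separate the groups. It had 2058, 188 and 86 in CD40 libraries, against 2044 and 3067 in CSF1Ri libraries, so CD40 1 was within the CSF1Ri range and the other CD40 libraries were over 10-fold below it. The log2 difference was -2.95 (SE 0.98), and without CD40 1 it was -4.29 and passed (limma adjusted p = 0.0164). CD40 2 and CD40 3 were also the 2 libraries with Y-linked transcripts. The difference of Il17f was -0.28 with CD40 1 alone, and a term for Y-linked transcripts did not turn its sign. Beyond these alternatives the part of sex in Il17f was not tested. Il23r, the receptor chain for IL-23, had 68, 3 and 29 in CD40 libraries, against 220 and 212 in CSF1Ri libraries. Its log2 difference was -3.42 (SE 0.98), and the control libraries stood at 131, 95 and 146, between the groups.

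The gamma delta T cell receptor genes were lower in part. Tcrg-C4, a constant segment of the gamma chain, had 427, 404 and 419 in CD40 libraries, against 558 and 916 in CSF1Ri libraries. The CD40 values were nearly equal, with a log2 difference of -0.78 (SE 0.28). Tcrg-C2 had 2545, 1089 and 1434 in CD40 libraries, against 2496 and 3879 in CSF1Ri libraries, with CD40 1 just above the lower CSF1Ri library. Trdc, the constant segment of the delta chain, had 3527, 2450 and 5940 in CD40 libraries, against 3686 and 7133 in CSF1Ri libraries, an overlap with an interval of -1.26 to 0.33. Trdv5, a variable segment of the delta chain among the 12 lower genes named by p, had 270, 70 and 103 in CD40 libraries, against 412 and 698 in CSF1Ri libraries (log2 -2.09, SE 0.58). Its exons overlap Trdc on the opposite strand, and since the libraries keep no strand, reads of the overlap cannot be told apart. Of 10 kept variable segments of the gamma and delta chains, 6 were lower and 4 higher with CD40. They were taken as a whole after Trdv5 had been seen. All CD40 libraries lay below in 2 (Trdv5 and Trdv2-2), against 9.31% of all genes. Closely related segments share reads, so their split is uncertain.

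Among the transcription factor genes, Rora, a nuclear receptor of type 17 cells, had 1062, 1004 and 1163 in CD40 libraries, against 1555 and 1716 in CSF1Ri libraries, all CD40 values being lower (log2 -0.60, SE 0.30). Maf, a regulator of IL-17-producing gamma delta cells, had 4088, 3538 and 7100 in CD40 libraries, against 4866 and 4518 in CSF1Ri libraries, so its CD40 values lay on both sides of the CSF1Ri values. Il22 was low throughout, at 12, 2 and 67 in CD40 libraries, against 11 and 58 in CSF1Ri libraries. Among the surface genes, Aqp3, a water and glycerol channel, had 777, 169 and 575 in CD40 libraries, against 978 and 1373 in CSF1Ri libraries. Ccr6, the receptor for CCL20, had 1726, 932 and 1743 in CD40 libraries, against 2000 and 2249 in CSF1Ri libraries. Both lay below in all CD40 libraries, by smaller margins than Il17a.

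**Figure D3:**
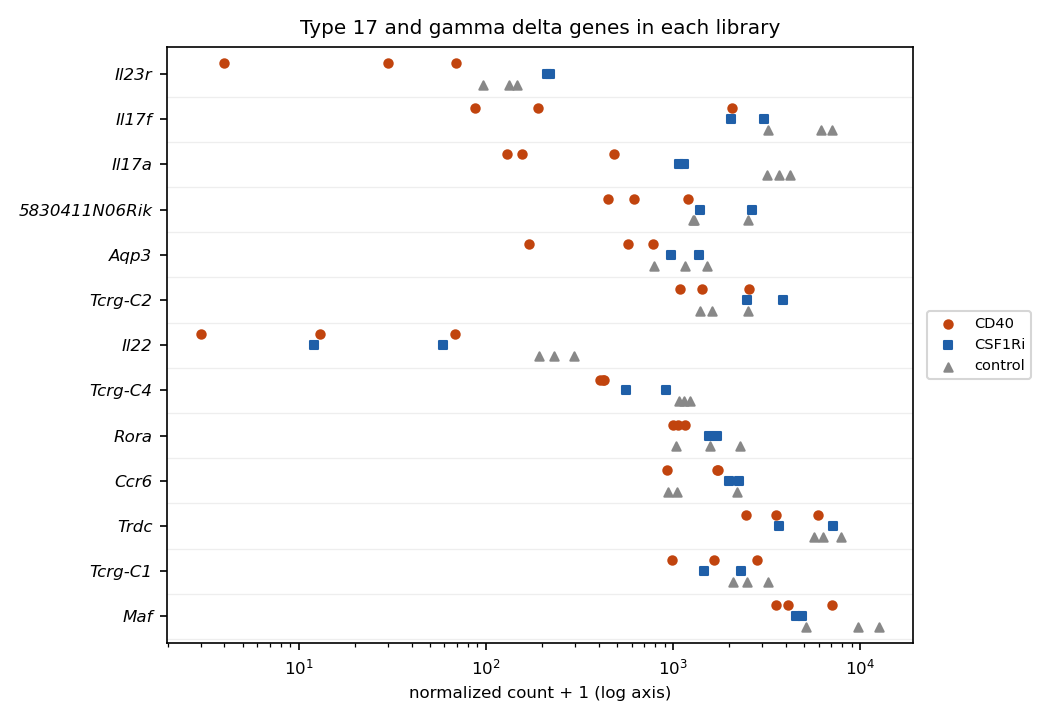
Normalized counts plus 1 (log x axis) of 13 of the 21 type 17 and gamma delta genes, 1 gene per row, in order of the log2 difference from the most negative at the top. Red circles are CD40 libraries, blue squares CSF1Ri libraries and grey triangles control libraries; in Il17a the CD40 circles lie at 128 to 485 and the squares at 1070 and 1138.

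Under the same limits, the other 10 lower genes with the smallest p were Srbd1, Tmem209, Parp9, Cyld, Ptar1, Cdv3, Tsr1, Tmx3, Mkln1 and Srr. Cyld, a deubiquitinase that restrains NF-kB signalling, had 1334, 1063 and 1031 in CD40 libraries, against 2126 and 2072 in CSF1Ri libraries. Its log2 difference was -0.89 (SE 0.23). Srbd1, an RNA-binding-domain protein, had 12, 25 and 8 in CD40 libraries, against 135 and 137 in CSF1Ri libraries. Parp9, an interferon-inducible ADP-ribosyltransferase family member, had 594, 461 and 420 in CD40 libraries, against 1074 and 1201 in CSF1Ri libraries. Mkln1 (muskelin, a part of an E3 ligase) had 976, 657 and 1127 in CD40 libraries, against 1697 and 1912 in CSF1Ri libraries. In all 3 the highest CD40 value was well below the lowest CSF1Ri value, which the choice of genes favours. Tsr1, a ribosome biogenesis factor, and Srr, serine racemase, overlap on opposite strands, so they are not independent entries, and Parp9 overlaps Dtx3l in the same way. Their log2 differences were -1.11 for Tsr1 and -1.23 for Srr. The log2 differences of Tmem209, Ptar1, Cdv3 and Tmx3 (a thioredoxin-related protein of the endoplasmic reticulum) were -1.26, -2.57, -1.14 and -0.91.

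The control tumors placed these 24 genes relative to both treatments. The genes were chosen for the gap between the groups, which favours a control mean that lies between them. The share over all genes was not computed, so the counts below describe these 24 genes only. CD40 minus CSF1Ri equals the difference between the effects of the agents over the same control libraries, so the values are given side by side only. Of the 12 genes higher with CD40, the control mean lay between the groups in 10, nearer to CD40 in 7 and nearer to CSF1Ri in 3, and beyond CD40 in 2. Of the 12 lower genes, it lay between the groups in 11, nearer to CSF1Ri in 10 and nearer to CD40 in 1, and beyond CSF1Ri in the other, Il17a. For Il17a the log2 difference from control was -4.10 with CD40 and -1.73 with CSF1Ri. For Ccl6 it was 0.80 with CD40 and -2.15 with CSF1Ri.

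Mast cell and basophil genes lay higher with CD40. Of the 19 members, all kept, 16 were higher (47% of all genes were) and 3 lower, with a median log2 difference of 1.45. In 6 of the 19 every CD40 library was above both CSF1Ri libraries, against 8.08% of all genes, and in 0 below, and 5 were higher at an unadjusted limma p under 0.05, against 1.69% of all genes. The median was 0.27 without CSF1Ri 6 and 3.16 without CSF1Ri 1, so its size depended on which CSF1Ri library was used. The list's sum was 31721, 5050 and 5517 in CD40 libraries, against 5052 and 1737 in CSF1Ri libraries and 1257, 1582 and 3689 in control libraries. The mast cell sum of CD40 1 was the highest of these 8 libraries, and CD40 2 was at the level of CSF1Ri 1. CD40 1 was also highest of the 5 libraries compared in RNA of some other cell types. Fibroblast genes summed to 10024, 5326 and 1558 in CD40 libraries, against 3270 and 3011 in CSF1Ri libraries. That list holds Thy1, which is also in the T cell identity list. Thy1 had 1452, 4001 and 1512 in CD40 libraries, against 1956 and 1925 in CSF1Ri libraries, so it made up much of the sums outside CD40 1. The keratinocyte and melanocyte sums had the same order within the CD40 group. The part of such RNA in the mast cell values was not tested.

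Promoters of 3 of these genes are shown because they encode the mast cell carboxypeptidase and chains of the IgE receptor. Capitals mark AGATAA or its reverse complement TTATCT, an element that GATA factors bind. Cpa3 is at chr3:20242132-20242431, Ms4a2 at chr19:11623670-11623969 and Fcer1a at chr1:173227180-173227479, all on the minus strand, in RefSeq windows of the same length and build as above.
Cpa3: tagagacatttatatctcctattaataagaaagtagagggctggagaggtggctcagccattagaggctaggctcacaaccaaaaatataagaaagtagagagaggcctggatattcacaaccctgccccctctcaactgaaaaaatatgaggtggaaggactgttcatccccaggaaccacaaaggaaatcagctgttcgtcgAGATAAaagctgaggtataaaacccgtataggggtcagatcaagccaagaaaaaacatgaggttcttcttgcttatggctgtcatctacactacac
Ms4a2: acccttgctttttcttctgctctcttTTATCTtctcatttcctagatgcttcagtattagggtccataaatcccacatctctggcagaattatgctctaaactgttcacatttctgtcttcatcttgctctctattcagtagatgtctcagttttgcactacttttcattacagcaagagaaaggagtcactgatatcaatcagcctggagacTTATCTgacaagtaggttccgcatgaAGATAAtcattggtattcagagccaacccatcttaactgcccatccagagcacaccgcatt
Fcer1a: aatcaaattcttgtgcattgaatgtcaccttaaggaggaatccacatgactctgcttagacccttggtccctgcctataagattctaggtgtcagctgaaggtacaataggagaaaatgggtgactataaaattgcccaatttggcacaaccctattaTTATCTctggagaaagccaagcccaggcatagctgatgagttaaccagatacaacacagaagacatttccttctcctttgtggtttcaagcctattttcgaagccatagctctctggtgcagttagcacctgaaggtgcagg
Cpa3 and Fcer1a hold 1 match each and Ms4a2 holds 3, and 11.2% of the 32544 promoters hold the element. None of the 6 windows shown holds the element searched in the other set, so no matches overlap.

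The receptor chains of the list come first. Ms4a2, the beta chain of the IgE receptor, had 144, 11 and 38 in CD40 libraries, against 2 and 0 in CSF1Ri libraries. Fcer1a, its alpha chain, had 469, 250 and 262 in CD40 libraries, against 122 and 29 in CSF1Ri libraries. Even the lowest CD40 library of Fcer1a was above the higher CSF1Ri library, with a log2 difference of 2.37 (SE 0.98). Cma1, mast cell chymase, had 5312, 856 and 1000 in CD40 libraries, against 370 and 114 in CSF1Ri libraries (log2 3.00, SE 0.93). Mcpt4, another chymase, had 1196, 190 and 172 in CD40 libraries, against 119 and 37 in CSF1Ri libraries. Cpa3, the carboxypeptidase, had 4168, 422 and 657 in CD40 libraries, against 408 and 185 in CSF1Ri libraries, which places CD40 2 barely above CSF1Ri 1 (log2 1.93, SE 1.12). The proteases were highest in CD40 1. The tryptases Tpsb2 and Tpsab1, whose similar sequences can share reads, overlapped. Tpsb2 had 6696, 649 and 1406 in CD40 libraries, against 706 and 338 in CSF1Ri libraries. Tpsab1 had 11746, 945 and 677 in CD40 libraries, against 1626 and 597 in CSF1Ri libraries. Gata2, a transcription factor of mast cells and basophils, had 2, 99 and 120 in CD40 libraries and 0 in both CSF1Ri libraries, at least 24.6-fold higher with CD40 by the group means against the floor of 3 counts per library. That mean rests on CD40 2 and CD40 3, since CD40 1 was itself under the floor. CD40 1, the library with the most protease RNA, was the one with almost no Gata2.

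**Figure D4:**
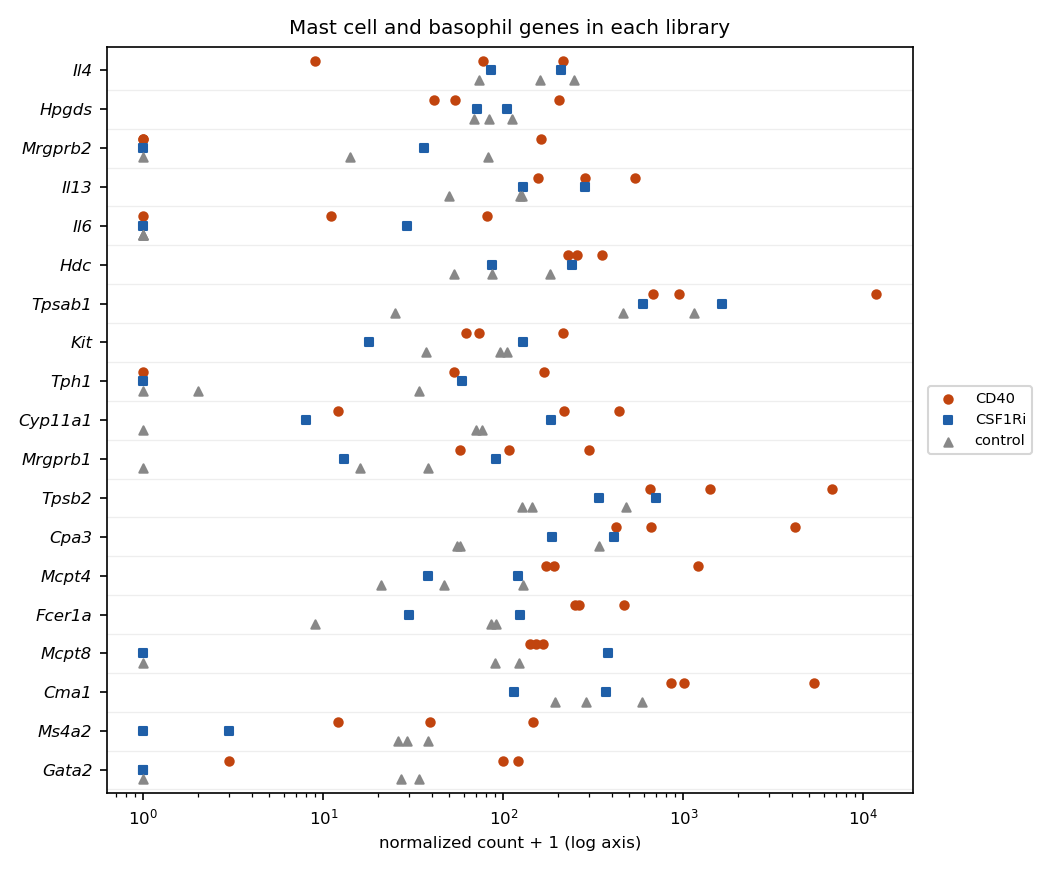
Normalized counts plus 1 (log x axis) of the 19 mast cell and basophil genes, 1 gene per row, in order of the log2 difference, with the most positive at the bottom. Red circles are CD40 libraries, blue squares CSF1Ri libraries and grey triangles control libraries; the red circle far to the right in Cma1, Cpa3 and the tryptases is CD40 1.

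More genes of T cell function were lower than higher with CD40, without any that passed the threshold. Of 25 cytokine receptors 20 were lower (53% of all genes were), with a median of -0.28 against -0.04 for all genes, and every CD40 library was below in 3 (12%), close to the 9.31% of all genes, and above in 0. Of 24 activation and costimulation genes 18 were lower, with 5 (20.8%) fully below and a median of -0.28, and of 19 chemokine and egress receptors 15 were lower, with 5 (26.3%) fully below and a median of -0.43. These 3 medians stayed negative over the alternatives. Il2rb, the beta chain shared by the IL-2 and IL-15 receptors and a member of the first 2 lists, had 5181, 3902 and 3944 in CD40 libraries, against 6565 and 6483 in CSF1Ri libraries. Gpr183, an oxysterol receptor that guides lymphocyte positioning, had 2200, 2057 and 2624 in CD40 libraries, against 3647 and 3313 in CSF1Ri libraries. Each was 1.52-fold lower with CD40, with a log2 difference of -0.60 (SE 0.25) for Il2rb and -0.61 (SE 0.21) for Gpr183. Cxcr4, the receptor for CXCL12, had 674, 893 and 846 in CD40 libraries, against 1244 and 1028 in CSF1Ri libraries. Ccr2, which guides cells to inflamed tissue, had 2802, 2501 and 3482 in CD40 libraries, against 3570 and 4249 in CSF1Ri libraries. Cd38, an NAD-consuming surface enzyme, had 311, 213 and 319 in CD40 libraries, against 507 and 535 in CSF1Ri libraries. In these 3 the groups did not overlap, and the nearest values of Ccr2 were close. Il18rap, a chain of the IL-18 receptor, had 1078, 723 and 639 in CD40 libraries, against 1060 and 1576 in CSF1Ri libraries, with CD40 1 inside the CSF1Ri range. The T cell identity list leaned the same way, with 17 of 21 members lower with CD40 (median -0.09). In that list every CD40 library was below in 3 (14.3%, against 9.31% of all genes) and above in 1 (4.76%, against 8.08%). Without CD40 3 its count of lower members was 10 and its median 0.08. The part of T cell content in the lists above was not tested.

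Cytotoxic genes gave no stable direction. Of 23 kept members 16 were lower with CD40 (median -0.25), but without CD40 3 the count was 7 and the median 0.13. Gzma, a granzyme, had 1591, 1071 and 444 in CD40 libraries, against 1930 and 2262 in CSF1Ri libraries. Gzmb, the main granzyme of killer cells, had 4057, 7246 and 2457 in CD40 libraries, against 3061 and 4732 in CSF1Ri libraries. Only Gzma of this pair had groups apart, and the interval of Gzmb ran from -0.78 to 1.04. Prf1, perforin, had 511, 330 and 515 in CD40 libraries, against 366 and 778 in CSF1Ri libraries. Ifng had 2659, 1949 and 203 in CD40 libraries, against 1272 and 1157 in CSF1Ri libraries. CD40 3 alone lay below the CSF1Ri group in Ifng, and its difference was -0.25 with all libraries and 0.91 without CD40 3. Cd8a showed the same low library, at 3949, 2744 and 1051 in CD40 libraries, against 3223 and 3685 in CSF1Ri libraries. Cd4 had 2764, 2794 and 3738 in CD40 libraries, against 3591 and 4504 in CSF1Ri libraries, with an interval of -0.96 to 0.18.

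Of 20 inhibitory receptor and exhaustion genes 14 were lower with CD40 (median -0.36), against 53% of all genes, and every CD40 library was below in 2 (10%), near the 9.31% of all genes. Bhlhe40, a transcription factor of activated T cells, had 2626, 2485 and 1571 in CD40 libraries, against 4189 and 3491 in CSF1Ri libraries (log2 -0.82, SE 0.25). Pdcd1, which encodes PD-1, had 5537, 2833 and 1868 in CD40 libraries, against 5196 and 5187 in CSF1Ri libraries. CD40 1 was level with the CSF1Ri libraries in Pdcd1 while the other CD40 libraries were lower, with an interval of -1.61 to 0.11. Havcr2, which encodes TIM-3, had 416, 646 and 286 in CD40 libraries, against 641 and 952 in CSF1Ri libraries. Lag3 had 283, 330 and 437 in CD40 libraries, against 234 and 277 in CSF1Ri libraries, so its CD40 values were the higher ones (interval -0.46 to 1.33). Tcf7, a factor of naive and memory-like T cells, had 2132, 1353 and 4349 in CD40 libraries, against 3031 and 3011 in CSF1Ri libraries, on both sides of the CSF1Ri values.

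Regulatory T cell genes were close to even, with 12 of 21 higher with CD40 and a median of 0.08. Foxp3, their defining factor, had 1693, 1613 and 2713 in CD40 libraries, against 1841 and 1637 in CSF1Ri libraries, an interval of -0.47 to 0.81. Itgb8, an integrin chain with which regulatory T cells activate TGF-beta, had 194, 97 and 124 in CD40 libraries, against 73 and 24 in CSF1Ri libraries. Ebi3, a subunit of IL-27 and IL-35, had 500, 763 and 320 in CD40 libraries, against 279 and 275 in CSF1Ri libraries, and it overlaps an opposite-strand gene, Gm16712. Itgb8 and Ebi3 were the 2 members with every CD40 library above (9.52%, against 8.08% of all genes). Every CD40 library was below in 1 (4.76%, against 9.31%), Nrp1. It had 659, 751 and 606 in CD40 libraries, against 1126 and 891 in CSF1Ri libraries.

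Genes of the CD40 pathway itself were spread around 0. Of 28 genes of the CD40 axis and TNF family 18 were lower with CD40, with a median of -0.11. Every CD40 library was above in 1 (3.57%, against 8.08% of all genes) and below in 1 (3.57%, against 9.31%). Cd40lg, the ligand, had 860, 772 and 741 in CD40 libraries, against 921 and 1035 in CSF1Ri libraries. The groups did not overlap in Cd40lg, by a small margin and with an interval of -0.93 to 0.32. Ltb, lymphotoxin beta, had 1804, 4177 and 1426 in CD40 libraries, against 812 and 1291 in CSF1Ri libraries (log2 1.11, SE 0.46). Of 27 NF-kB feedback genes 13 were higher and 14 lower. Bcl3, an atypical IkB protein, had 108, 212 and 108 in CD40 libraries, against 60 and 37 in CSF1Ri libraries. Tnfaip3, which encodes the NF-kB inhibitor A20, had 1690, 2031 and 833 in CD40 libraries, against 3223 and 2029 in CSF1Ri libraries. Bcl3 was thus higher and Cyld lower with CD40, while Tnfaip3 touched at 1 value.

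Antigen presentation by class I held members apart in both directions, with every CD40 library above in 5 of 24 (20.8%, against 8.08% of all genes) and below in 4 (16.7%, against 9.31%). H2-Q7, a nonclassical class I heavy chain, had 4510, 5393 and 5238 in CD40 libraries, against 3199 and 3757 in CSF1Ri libraries (log2 0.54, SE 0.20), and it shares sequence with its neighbours. Erap1, which trims peptides for class I, had 816, 292 and 758 in CD40 libraries, against 1276 and 1409 in CSF1Ri libraries (log2 -1.24), and it overlaps Cast on the opposite strand. Irf1, an interferon-induced factor, had 2193, 1989 and 2039 in CD40 libraries, against 2740 and 2790 in CSF1Ri libraries. Its values were even within each group and apart between them. The interferon gamma list that holds Irf1 had 13 of 28 members higher and 15 lower with CD40 (median -0.007). In that list every CD40 library was above in 1 (3.57%, against 8.08% of all genes) and below in 2 (7.14%, against 9.31%). Mx2 was at 0 in all CD40 libraries, against 11 and 40 in CSF1Ri libraries, at least 8.50-fold lower, while its close relative Mx1 had 53, 6 and 129 in CD40 libraries, against 4 and 1 in CSF1Ri libraries. The 2 genes resemble each other, so shared reads make the split uncertain. The type I interferon list as a whole had 14 of 24 members higher with CD40 and a median of 0.08.

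Macrophages are the cells that depend on CSF1R. Of 23 kept macrophage genes 11 were higher with CD40 and 12 lower, with a median of 0.00. Every CD40 library was above in 2 (8.7%) and below in 2 (8.7%), near the 8.08% and 9.31% of all genes. Arg1, arginase of suppressive myeloid cells, had 34, 0 and 0 in CD40 libraries, against 193 and 113 in CSF1Ri libraries (log2 -5.51, SE 1.68). Cd209a, a lectin of monocyte-derived dendritic cells, had 216, 534 and 168 in CD40 libraries, against 133 and 33 in CSF1Ri libraries. Lyz2, lysozyme of myeloid cells, had 1325, 259 and 285 in CD40 libraries, against 144 and 182 in CSF1Ri libraries. Arg1 was lower and Cd209a and Lyz2 higher in every CD40 library, so members lay on opposite sides within 1 list. B and plasma cell genes were lower in 9 of 14 (median -0.98), but the median was 0.53 without CSF1Ri 1. Every CD40 library was above in 2 (14.3%, against 8.08% of all genes) and below in 3 (21.4%, against 9.31%). The 2 above were Xbp1 and Sdc1. Xbp1 had 895, 1182 and 1053 in CD40 libraries, against 758 and 747 in CSF1Ri libraries. Sdc1 had 239, 89 and 181 in CD40 libraries, against 27 and 50 in CSF1Ri libraries. Blnk, an adaptor of the B cell receptor, was at 0 in all CD40 libraries, against 37 and 27 in CSF1Ri libraries, at least 10.7-fold lower. Bank1, a B cell scaffold, was at 0 in all CD40 libraries, against 30 and 15 in CSF1Ri libraries, at least 7.50-fold lower.

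Among metabolic and housekeeping groups, 37 of 50 nuclear genes of oxidative phosphorylation were higher with CD40 (median 0.11), but the count was 15 without CD40 2 and 45 without CD40 3. Atp5d, a subunit of ATP synthase, had 3908, 4994 and 3378 in CD40 libraries, against 2574 and 2543 in CSF1Ri libraries. All 7 kept genes of the mitochondrial genome were lower (median -0.32), while in CD40 3 the whole mitochondrial sum stood below the other 4 libraries. Of 35 cell cycle genes 21 were higher (median 0.14). Of these 35, 6 (17.1%, against 8.08% of all genes) were fully above and 3 (8.57%, against 9.31%) fully below. Among those below, Kif11 had 411, 347 and 439 in CD40 libraries, against 520 and 730 in CSF1Ri libraries. Cenpe, a kinetochore motor, had 554, 517 and 731 in CD40 libraries, against 245 and 390 in CSF1Ri libraries (log2 0.94, SE 0.35). Among 22 oxidative stress genes, Cat, catalase, had 1390, 861 and 1049 in CD40 libraries, against 2086 and 1949 in CSF1Ri libraries (log2 -0.90, SE 0.26). Osgin1, a gene induced by oxidative stress, had 22, 0 and 0 in CD40 libraries, against 86 and 75 in CSF1Ri libraries. Cat and Osgin1 were lower in every CD40 library, but 13 of the 22 genes were higher with CD40, and the list's median was 0.13. Every CD40 library was above in 2 of the 22 (9.09%, against 8.08% of all genes) and below in 3 (13.6%, against 9.31%). Among those above, Gclm had 199, 179 and 149 in CD40 libraries, against 58 and 95 in CSF1Ri libraries. Of 77 genes of cytosolic ribosomal proteins 40 were higher, with a median of 0.01.

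**Figure D5:**
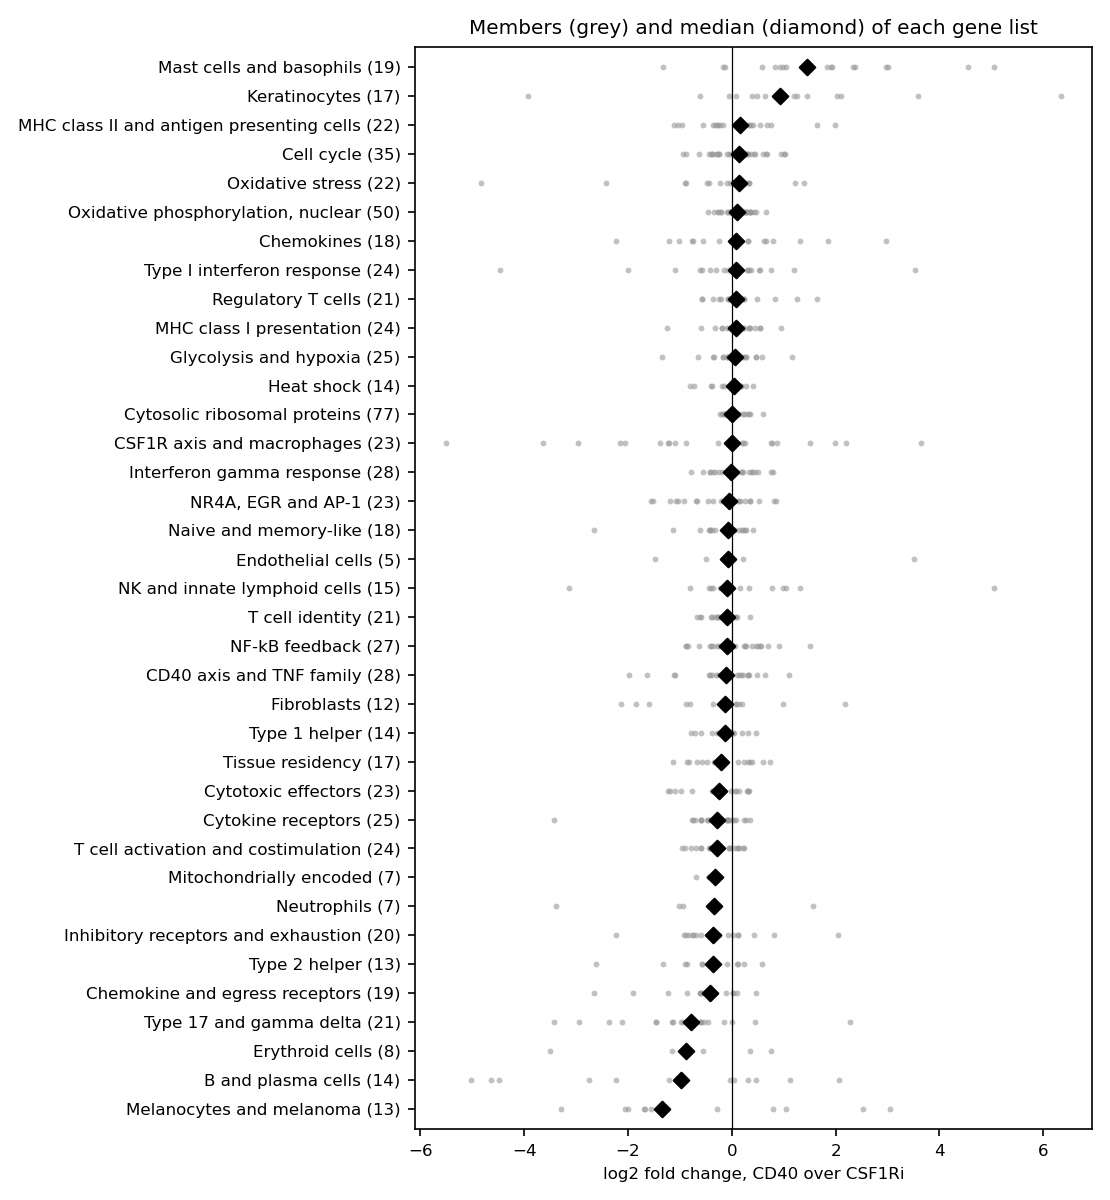
Log2 fold change of CD40 over CSF1Ri for the members (grey points) and the median (black diamond) of each gene list, with the number of kept members in parentheses; the Y-linked list is left out. The mast cell and basophil list has the highest median, 1.45, and the melanocyte and melanoma list the lowest, -1.34; the lists of T cell function lie between -0.43 and 0.08, apart from type 17 and gamma delta at -0.78.

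The extremes of that plot were lists with low counts or with members on both sides. The melanocyte list had 4 of 13 members higher and 9 lower, with 0 members apart in either direction. Its median was 1.39 with CD40 1 as the sole CD40 library, and its sum was 2073, 1373 and 653 in CD40 libraries, against 775 and 884 in CSF1Ri libraries. The erythroid list had 6 of 8 members lower (median -0.88), and hemoglobin transcripts summed to 811, 1171 and 838 in CD40 libraries, against 1288 and 2695 in CSF1Ri libraries.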

How the data were processed

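RNA of T cells from mouse melanomas was measured in 10 libraries. Per the labels' protocols, total RNA (50 ng) went into a SMARTer low-input kit that keeps no strand information, and paired reads of 75 bases were sequenced. STAR aligned the reads to GRCm38 (mm10), HTSeq counted them per gene and DESeq2 normalized the counts, per the submitters' processing notes, and the versions are not given in the sources used here. The deposited values are scores: the authors' size-factor-normalized counts, rounded to whole numbers. They total 11538244 to 14024851 per library over the 5 libraries compared, which are scaled values and not depths. Depth is unknown, and the floor of 3 counts per library covers counting error only.

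The CD40 and CSF1Ri libraries were compared in limma 3.58.1 (R 4.3.3) on log2 of value plus 1, with the means of all 4 groups in 1 fit (10 libraries, 6 residual and 5.14 prior degrees of freedom) and a mean-variance trend. Tests were two-sided and Benjamini-Hochberg adjusted over the 14052 genes kept. Tables were made in Python 3.11.15 with numpy 2.4.6, pandas 2.3.3 and scipy 1.17.1. The fit was tested on simulated data. The 22 alternatives covered the fit, the trend, the pseudocount, the filter, the scaling, each library left out, Y-linked transcripts and Malat1.

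Named genes were up to 12 per direction with the smallest p, groups that do not overlap and a mean of 50 or more, leaving out clone names. To these were added members of the 38 lists with the smallest p and some genes given whatever their values. Ccl9, the variable segments and the list members outside that rule were chosen after their values were seen. The lists, the comparison and the rules were chosen with earlier results of these data known. Gene positions are those of GENCODE vM21 (GRCm38), and promoter sequences are RefSeq's. A member of the type 17 and gamma delta list is counted with the list but not reported by itself here.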

Additional observations from a re-analysis of the deposited data

How the results depend on the processing

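No paired analysis was possible because the titles of the CD40 and CSF1Ri libraries share fewer than 2 replicate numbers. Against 0 genes past the threshold, limma called 6 without the trend of the variance on the mean (Aldh1l1, Anxa8, Bex6, Fbxl21, Mtcl1 and Slc13a3) and 1, Anxa8, with a pseudocount of 0.5. Leaving out 1 library gave 0 to 2, where the 2 are Il17a and Il17f without CD40 1. In that comparison only the CD40 libraries held Y-linked transcripts, so sex and agent cannot be told apart. Genes at an unadjusted p under 0.05 numbered 565, against 381 with only the 5 libraries compared and 329 with a term for Y-linked transcripts. They numbered 178 to 963 with 1 library left out, lowest without CSF1Ri 6, highest without CD40 3 and 933 without CD40 1. Over the left-out libraries the log2 difference ran from -0.14 to 0.48 for Csf1r, -0.88 to 0.74 for Cd40, -0.071 to 0.30 for Foxp3, -0.94 to 0.91 for Ifng and -0.27 to 0.51 for Gzmb. It ran from -0.81 to 0.27 for Prf1, -0.83 to 0.0115 for Tcf7, -0.52 to 0.23 for Tcrg-C1, -2.09 to 0.21 for Il22, -0.30 to 0.20 for Maf, -0.94 to 0.0119 for Trdc and -0.30 to 1.76 for Tpsab1. With CD40 1 as the sole CD40 library, the sign turned for Cd40 (0.25), Cd8a (0.20), Foxp3 (-0.036), Ifng (1.13) and Pdcd1 (0.093). A term for Y-linked transcripts turned it for Foxp3 (-0.061), Ifng (0.38) and Prf1 (0.0724), a term for Malat1 for Cd40 (0.13), Foxp3 (-0.02) and Ifng (0.34), and quantile normalization for Maf (0.025). The causes were not tested. With 2 CSF1Ri libraries, leaving out 1 assumes that the other varies like the rest, and depth is not recorded in the scaled values.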

Other observations

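Tumors given both agents were outside the comparison, and their 2 libraries are given as values with no test. Il17a had 1215 and 978 normalized counts there, just above and just below the CSF1Ri range of 1070 to 1138. Both values were above all CD40 libraries. Il17f had 3997 and 4370, above every CD40 and CSF1Ri library, and Il23r had 130 and 127, between the groups. Trdv5 had 103 and 186, inside the CD40 range of 70 to 270. Ccl6 had 534 and 452, above both CSF1Ri libraries and below all CD40 libraries, and Anxa8 had 47 and 81, above the 0 of the CSF1Ri libraries. The mast cell genes Ms4a2, at 210 and 95, and Cma1, at 3118 and 470, were also above both CSF1Ri libraries. The combination thus lay nearer to CSF1Ri for the cytokine Il17a and nearer to CD40 for Ccl6, Anxa8 and Ms4a2.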
